A study of Saccharomyces cerevisiae with 12 samples.

Results

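The ergosterol and isoprenoid pathway of yeast is described here through 32 genes, all of which were measured, among 5449 named genes on the array. The members were taken by name from a list that covers the mevalonate steps, the steps to lanosterol and to ergosterol, electron donors, sterol esterification, sterol regulators and sterol transfer, and each was read by 1 probe set that matches it alone by its suffix. All groups share the strain, BY4741 of Saccharomyces cerevisiae, which is haploid, of mating type a, and deleted at HIS3, LEU2, MET17 and URA3. Exponential cultures in minimal medium were kept for 2 h without alachlor or with 110 mg/L (the LOEC) or 200 mg/L (the IC20). Alachlor is a chloroacetanilide herbicide. Each dose was a separate experiment with untreated controls of its own, so the 12 arrays form 4 groups of 3 cultures each, called LOEC controls and 110 mg/L in the one experiment and IC20 controls and 200 mg/L in the other.

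Ergosterol is the main sterol of fungal membranes and takes the place that cholesterol has in animals. It is built from acetyl-CoA through mevalonate, isoprenoid diphosphates, squalene and lanosterol, and farnesyl diphosphate is the branch point to dolichol, ubiquinone and prenylated proteins. Several late steps use oxygen, heme or non-heme iron. The paired transcription factors Upc2 and Ecm22 act on many of these genes, and excess sterol is stored as esters.

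Values are intensities on a linear scale as the authors deposited them, and changes are differences of mean log2 intensity. The test was that of limma, fitted over all 5449 genes and 12 arrays, and a gene passed, and is said to have risen or fallen, at a Benjamini-Hochberg adjusted p under 0.05. The number of arrays limits the precision: the standard error of a log2 change was 0.036 to 0.18 among the members, with a median of 0.053. Array medians lay between 1561 and 1613. At the deleted loci MET17, LEU2 and URA3 no array read above 228.8, which served as the level of an absent transcript. HIS3 read 6721 to 9552 on the 12 arrays. Its deletion in this strain removes a part of the gene, and the position of its probe set within the gene was not checked here. Among markers of mating type a, STE2 read 15341 to 17464, while of the alpha markers MF(ALPHA)1 read at most 40.7 and SAG1 read 1112 to 1831.

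The first comparison asks whether the lower dose moves the pathway. ERG3, the desaturase that puts a double bond into the sterol B ring, rose 1.21-fold, and no other member passed. Thus 1 of 32 members rose and 0 fell in limma, where 4.26% of all genes passed, 3.05% rising and 1.21% falling. Unadjusted p under 0.05 in limma was met by 3 members that were higher and 1 that was lower, against 16.3% of all genes in either direction. For the higher dose the question is the same. There 7 of 32 members rose and 0 fell, where 17.8% of all genes passed, 10.0% rising and 7.80% falling. In order of pathway step they were ERG12, ERG9, ERG26, ERG27, ERG3, ERG4 and ECM22. The unadjusted counts at 200 mg/L in limma were 9 higher and 1 lower, against 31.5% of all genes. Fitted on the 6 arrays of that experiment alone, 4 of them passed: ERG26, ERG27, ERG3 and ECM22. That fit called fewer genes in all: 444 of 5449, 283 rising and 161 falling, against 971 in the fit of 12 arrays. The plot of changes by pathway step shows both doses side by side.

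**Figure D1:**
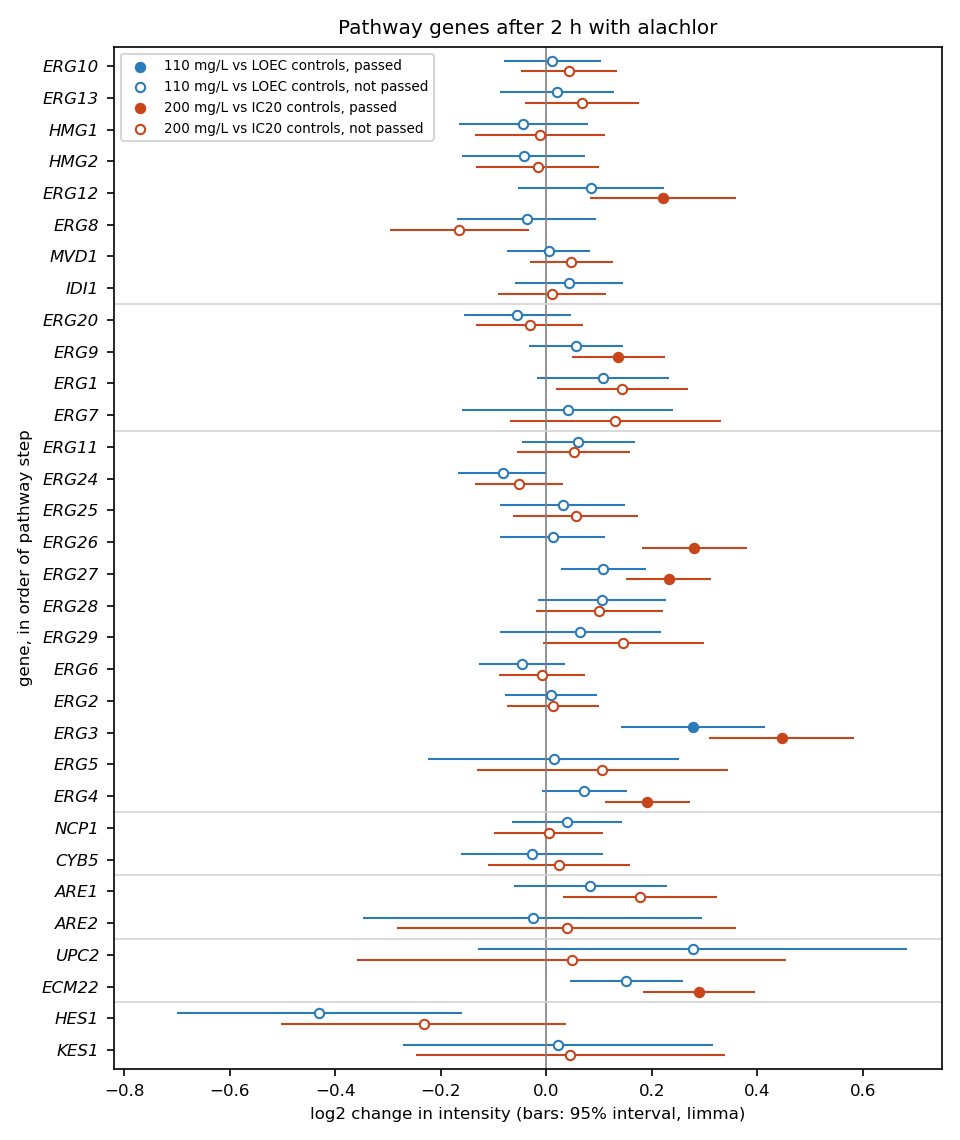
Log2 change in intensity (x axis) of the 32 pathway genes in order of step (y axis, grey lines between steps) at 110 mg/L against LOEC controls and at 200 mg/L against IC20 controls. Bars are 95% intervals of limma. Filled points passed at adjusted p under 0.05: ERG3 at 110 mg/L, and ERG12, ERG9, ERG26, ERG27, ERG3, ERG4 and ECM22 at 200 mg/L.

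ERG3 (YLR056W) had the largest change of the 7. It read 8792, 8725 and 8618 in the LOEC controls, and the cultures with 110 mg/L gave 10204, 10452 and 11044. For the other experiment the values were 8257, 9308 and 8232 in the controls and 12636, 11362 and 11139 with the herbicide. Every treated array lay above every control of its experiment, and the 2 sets of controls overlapped. The means were 8712 ± 87.6 and 10567 ± 431 at the lower dose, and 8599 ± 614 and 11712 ± 808 at the higher (SD, n = 3). The log2 change was 0.28 (SE 0.062, limma adjusted p = 0.0320) and 0.45 (SE 0.062, limma adjusted p = 0.000647), which is 1.21-fold and 1.36-fold. Among all genes that rose, ERG3 stood at place 120 of 166 by size at 110 mg/L and at place 169 of 546 at 200 mg/L. The call at 110 mg/L was lost when any 1 of the 6 arrays of that experiment was left out. The log2 change then lay within 0.25 to 0.30 and the adjusted p reached 0.123. It was also lost after median centring (log2 change 0.25, adjusted p = 0.0650). The call at 200 mg/L held whichever of the 12 arrays was left out, but only the 6 of the IC20 experiment enter that change. Here and below, an array of a group not compared bears only on the spread that all groups share. Its omission leaves the log2 change as it was.

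ERG4 (YGL012W), the reductase of the last step to ergosterol, also acts late. It read 12414, 12092 and 12441 in the IC20 controls and 14180.0, 13849 and 14159.7 at 200 mg/L. The treated arrays lay above the controls without overlap, and replicates were close. The means of 12316 ± 194 and 14063 ± 186 (SD, n = 3) give a 1.14-fold rise (log2 change 0.19, SE 0.037, limma adjusted p = 0.00460). With 110 mg/L it read 13684, 13653 and 12955 against 12734, 12618 and 12972, groups that overlap, with a log2 change of 0.072 and an adjusted p of 0.376. The call at 200 mg/L held with each array left out, and the adjusted p was 0.0563 in the fit of the 6 arrays alone.

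The other late enzymes around Erg3 and Erg4 did not pass at either dose. The sterol methyltransferase ERG6 had log2 changes of -0.046 and -0.0090, and the isomerase ERG2 had 0.0084 and 0.013, in this order of doses. Their 95% intervals at 200 mg/L ran from -0.091 to 0.072 and from -0.074 to 0.10. The cytochrome P450 desaturase ERG5, which acts between Erg3 and Erg4, had 0.014 and 0.11, with a wide interval of -0.13 to 0.34 at 200 mg/L, where the value was -0.038 without IC20 control array 2.

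Removal of the methyl groups at the sterol A ring needs the oxidase Erg25, the dehydrogenase and decarboxylase Erg26 and the ketoreductase Erg27, which Erg28 holds together at the endoplasmic reticulum. ERG26 (YGL001C) read 5621, 5477 and 6049 in the IC20 controls and 6897, 6830.4 and 7085 at 200 mg/L. All treated arrays lay above the controls by more than the spread of either group. It rose 1.21-fold, from 5716 ± 298 to 6938 ± 132 (SD, n = 3; log2 change 0.28, SE 0.045, limma adjusted p = 0.00159). The lower dose gave 5772, 5674 and 5409.6 against 5546, 5614 and 5545, so that treated and control arrays overlapped (log2 change 0.012, 95% interval -0.087 to 0.11).

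ERG27 (YLR100W) read 6879, 6997 and 7126 in the IC20 controls and 8350.2, 8195 and 8125 at 200 mg/L. The groups were far apart for their spread, and the rise was 1.17-fold, from 7001 ± 124 to 8223 ± 115 (SD, n = 3; log2 change 0.23, SE 0.037, limma adjusted p = 0.00144). Its values at 110 mg/L were 7479, 7230.2 and 7253 against 6650.5, 6736 and 6993. These groups did not overlap either, but the log2 change of 0.11 did not pass (adjusted p = 0.149).

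The partners of Erg26 and Erg27 had smaller values. The oxidase gene ERG25 had log2 changes of 0.031 and 0.056, the scaffold gene ERG28 0.11 and 0.10, and ERG29, whose product is needed for the oxidase step, 0.064 and 0.15. None of the 3 passed. The 95% intervals at 200 mg/L were -0.062 to 0.17 for ERG25, -0.021 to 0.22 for ERG28 and -0.0073 to 0.30 for ERG29. Without 200 mg/L array 3, ERG29 had 0.24 and passed (limma adjusted p = 0.00966).

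**Figure D2:**
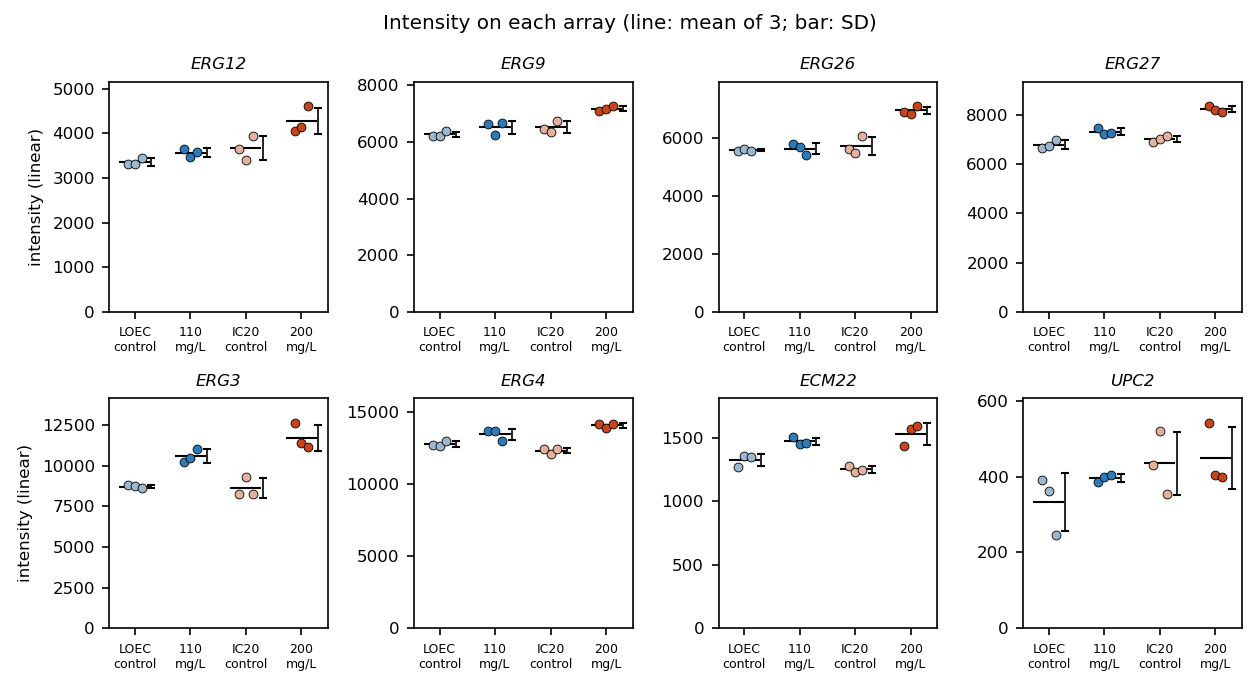
Intensity on a linear scale from 0 (y axis) on each of the 12 arrays by group (x axis) for the 7 genes that rose at 200 mg/L and for UPC2, the relative of ECM22. Points are arrays, lines the mean of 3 and bars the SD. At 200 mg/L all 3 arrays of ERG12, ERG9, ERG26, ERG27, ERG3, ERG4 and ECM22 lay above the 3 IC20 controls, while those of UPC2 overlapped with them.

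Earlier in the branch, lanosterol is acted on by ERG11, the cytochrome P450 demethylase that azole antifungals inhibit, and then by the reductase ERG24. ERG11 read 16751, 16411 and 15646 in the LOEC controls and 17209.6, 16892 and 16782 at 110 mg/L. It read 16899.9, 15289 and 16845 in the IC20 controls and 16796, 16531 and 17447 at 200 mg/L. The groups overlapped at the higher dose only, and the log2 changes of 0.061 and 0.051 did not pass. The intervals of -0.046 to 0.17 and -0.055 to 0.16 leave out any change as large as that of ERG3 at the same dose. ERG24 had log2 changes of -0.083 and -0.052, neither of which passed. In all, 4 of the 12 genes from lanosterol to ergosterol rose at 200 mg/L and 0 fell, where 10.0% of all genes rose and 7.80% fell. Their median log2 change was 0.10 against 0.00021 over all genes.

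Between farnesyl diphosphate and lanosterol, 1 of 4 genes rose at 200 mg/L and 0 fell, against 10.0% and 7.80% of all genes, with a median log2 change of 0.13. It was ERG9 (YHR190W), squalene synthase, the first enzyme committed to sterols. It read 6472, 6357 and 6758 in the IC20 controls and 7091, 7168 and 7269 at 200 mg/L, without overlap. The rise was 1.10-fold, from 6529 ± 206 to 7176 ± 89.1 (SD, n = 3; log2 change 0.14, SE 0.040, limma adjusted p = 0.0395). This call was lost without LOEC control arrays 1 or 2, 110 mg/L array 1, IC20 control arrays 1 or 2, or any of the 3 arrays at 200 mg/L. The LOEC control and 110 mg/L arrays do not enter the change, which stayed 0.14 without them, and alter only the shared spread. The adjusted p was then up to 0.119, and over all 12 such fits the log2 change was 0.12 to 0.16. It was also lost after median centring (adjusted p = 0.0619) and quantile normalization (adjusted p = 0.0810). In the LOEC experiment ERG9 read 6197, 6230.2 and 6388 without and 6640.0, 6263 and 6675 with the herbicide. Those groups overlapped, and the log2 change of 0.057 did not pass (adjusted p = 0.575). ERG1, the squalene epoxidase that terbinafine inhibits, read 13579, 13092 and 12498 in the IC20 controls and 14538, 14731 and 13969.6 at 200 mg/L. These groups did not overlap, yet the log2 change of 0.14 did not pass (adjusted p = 0.110). The farnesyl diphosphate synthase ERG20 had -0.055 and -0.032 at the 2 doses, and the lanosterol synthase ERG7 had 0.040 and 0.13. Neither passed. The value of ERG7 at 200 mg/L (95% interval -0.070 to 0.33) was 0.016 without 200 mg/L array 3, 0.063 without IC20 control array 2 and 0.22 without 200 mg/L array 1.

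Of the 8 mevalonate genes, 1 rose at 200 mg/L and 0 fell, against 10.0% and 7.80% of all genes, with a median log2 change of 0.027. This was mevalonate kinase, ERG12 (YMR208W), which read 3640.1, 3407 and 3946 in the IC20 controls and 4053, 4150.5 and 4608 at 200 mg/L. The lowest treated array lay just above the highest control. The rise was 1.17-fold, from 3664 ± 270 to 4270.4 ± 296 (SD, n = 3; log2 change 0.22, SE 0.063, limma adjusted p = 0.0333). It was lost without LOEC control array 2, IC20 control arrays 1 or 2, or 200 mg/L arrays 2 or 3, with an adjusted p of up to 0.111, and over all 12 such fits the log2 change was 0.17 to 0.28. With 110 mg/L ERG12 read 3658, 3458 and 3576 against 3309, 3313 and 3456 in the controls. These groups were just apart, and the log2 change of 0.085 did not pass (adjusted p = 0.596).

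The HMG-CoA reductase genes, which hold the rate-limiting step of the pathway in many organisms, had small values. HMG1 had log2 changes of -0.043 and -0.011 and HMG2 -0.043 and -0.016. Their 95% intervals at 200 mg/L were -0.13 to 0.11 and -0.13 to 0.10. The thiolase ERG10, the synthase ERG13, the decarboxylase MVD1 and the isomerase IDI1 had values within 0.010 and 0.068 at 200 mg/L. Phosphomevalonate kinase, ERG8, was the enzyme gene with the most negative value at 200 mg/L: 4574, 4259.9 and 4277 in the IC20 controls against 3719.8, 3986 and 3989 at 200 mg/L. These groups did not overlap, but the log2 change of -0.16 did not pass (adjusted p = 0.0830).

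The electron donors did not pass. NCP1, the reductase that feeds cytochromes P450, had log2 changes of 0.039 and 0.0041, and the cytochrome CYB5 had -0.027 and 0.024. For sterol esterification, the acyltransferase gene ARE1 read 1879.7, 1604 and 1662 in the IC20 controls and 1808, 2037 and 1968 at 200 mg/L. The groups overlapped, and its log2 change of 0.18 did not pass (adjusted p = 0.0906). It passed without IC20 control array 1 (log2 change 0.25, limma adjusted p = 0.0251) or 200 mg/L array 1 (0.23, limma adjusted p = 0.0471). The related ARE2 had -0.026 and 0.038, with a wide interval of -0.28 to 0.36 at 200 mg/L.

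Of the 2 regulators, ECM22 (YLR228C) rose at 200 mg/L. It read 1279, 1229 and 1243 in the IC20 controls and 1429.8, 1564 and 1595 at that dose, without overlap. The rise was 1.22-fold, from 1250.2 ± 25.8 to 1529 ± 87.7 (SD, n = 3; log2 change 0.29, SE 0.048, limma adjusted p = 0.00196). With the lower dose it read 1503, 1453 and 1457 against 1272, 1353 and 1349. These groups were apart too, but the log2 change of 0.15 did not pass (adjusted p = 0.121). UPC2 read between 246 and 542 over the 12 arrays, near the level of the deleted loci, and its LOEC controls at 391, 361 and 246 held the lowest array. Its log2 changes of 0.28 and 0.048 had the widest intervals of the members, -0.13 to 0.68 and -0.36 to 0.46. The first was 0.073 without LOEC control array 3, the lowest, and 0.41 without LOEC control array 1. The second ran from -0.096 to 0.18 over the fits without 1 array, so it has no settled sign. Whether the responses of the 2 regulators differ was not tested.

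Among the transfer proteins, HES1 read 82.3 to 147, below the level of the deleted loci on all 12 arrays, and is given no fold. Its treated arrays lay below the controls of their experiment at both doses, and its log2 changes did not pass (adjusted p = 0.0856 and 0.224). The lower reading at 110 mg/L passed without 110 mg/L array 1, after quantile normalization and with the length trend removed (limma adjusted p = 0.0404, 0.0351 and 0.0488). KES1, a sterol and phosphatidylinositol phosphate exchange protein at the Golgi, had log2 changes of 0.023 and 0.046. In the IC20 experiment it was among the most variable members, at 5626, 4326 and 6373 in the controls and 4764, 5519 and 6487 with the herbicide.

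The 95% intervals at 200 mg/L of all 25 members that did not pass lay within a change of 1.5-fold in either direction, and at 110 mg/L those of 29 of 31 did, UPC2 and HES1 being the exceptions. That bound is wider than any change that passed. At 200 mg/L the intervals of 15 of the 25 reach a size of 0.14, that of ERG9, the smallest log2 change that passed. All intervals rest on a spread pooled over the 4 groups. Replicates of the IC20 experiment spread more, so pooled intervals at 200 mg/L can be too narrow and those at 110 mg/L too wide. The counts past the test at the 2 doses depend on this pooling. Fitted on the 6 arrays of each experiment, 1 member passed at 110 mg/L and 4 at 200 mg/L. Over all genes 314 and 444 passed in those fits, against 232 and 971 in the pooled fit. In IC20 controls and at 200 mg/L the log2 SDs were 0.28 and 0.28 for ARE2, 0.29 and 0.22 for KES1, and 0.27 and 0.25 for UPC2. Whether intervals from those arrays alone stay within 1.5-fold was not tested. Groups did not overlap in 7 members that were higher and 3 that were lower at 110 mg/L, or 21.9% and 9.38% of the 32, against 15.4% and 12.2% of all genes. With 200 mg/L 8 were higher and 2 lower, or 25% and 6.25%, against 16.3% and 14.5% of all genes.

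The comparison of the doses asks whether the response at 200 mg/L exceeds that at 110 mg/L. For 0 of 32 members did the difference of the responses pass in limma, where 1.25% of all genes passed, 0.991% with the higher and 0.257% with the lower value at 200 mg/L. Unadjusted p under 0.05 in limma was met by 3, all higher at 200 mg/L, against 10.6% of all genes. The largest was that of ERG26, 0.27 on the log2 scale (95% interval 0.13 to 0.41, limma adjusted p = 0.0842). That difference passed when IC20 control array 3 was left out, and also with a trend with coding length removed (adjusted p within 0.0415 to 0.294 over the alternatives). For ERG3 the difference was 0.17 (interval -0.026 to 0.36), for ERG4 0.12 (0.0048 to 0.23), for ERG27 0.12 (0.0099 to 0.24) and for ECM22 0.14 (-0.013 to 0.29), none past the test.

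The responses had the same sign at both doses in 30 of 32 members, or 93.8%, against 69.9% of all genes, on the deposited scale. After quantile normalization the count was 26, or 81.3%, against 70.6%, and after median centring 22, or 68.8%, against 71.0%, so the excess over all genes depends on the scaling. When 1 array was left out, the sign of the change turned in 9 members at 110 mg/L and in 12 at 200 mg/L. Each dose had its own controls, but members share the arrays of an experiment. Across the 32 members the log2 changes correlated at Pearson's r = 0.74 and Spearman's rho = 0.81, and at r = 0.69 without ERG3, as a description over genes that are not independent. Of 23 members positive at both doses, 18 had the larger value at 200 mg/L. Neither this count nor the correlations were computed over all genes, so they do not set the pathway apart from other genes. The median log2 change of the members was 0.027 at 110 mg/L and 0.050 at 200 mg/L, against 0.0052 and 0.00021 over all genes. The signs at 110 mg/L depend on the scaling of the arrays: 23 of 32 members were positive as deposited, 21 after quantile normalization and 16 after median centring. For 200 mg/L these counts were 25, 23 and 22.

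**Figure D3:**
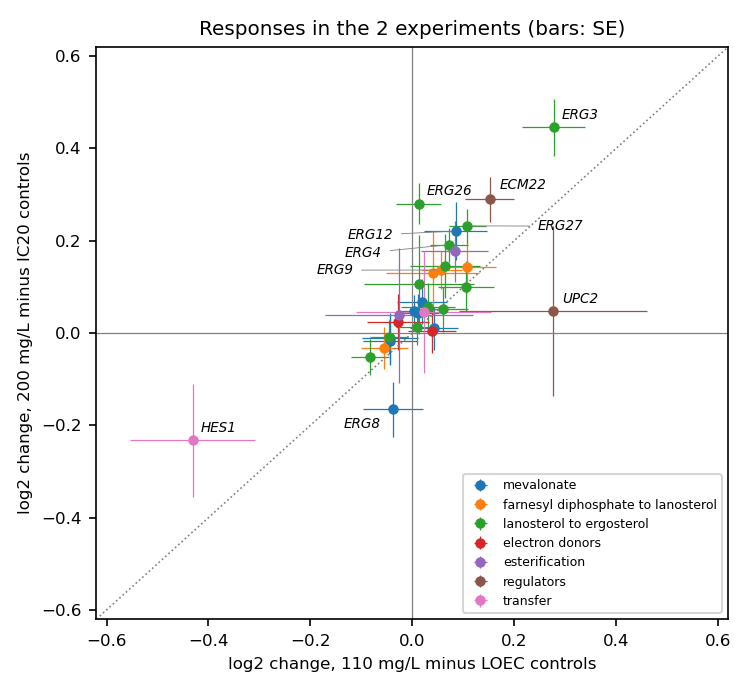
Log2 change of each of the 32 members at 110 mg/L (x axis) and at 200 mg/L (y axis), each against its own controls, coloured by step, with SE as bars. The dotted line marks equal changes. ERG3 lies farthest to the upper right, at 0.28 and 0.45, ERG26 lies at 0.012 and 0.28, and most other members lie near 0 at both doses.

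In untreated cultures the comparison of the IC20 and LOEC controls asks whether the experiments started alike. Of the 32 members, 0 passed in limma, where 0.789% of all genes did, 0.587% being higher and 0.202% lower in the IC20 controls. Unadjusted p under 0.05 in limma was met by 2, both higher in the IC20 controls, against 14.5% of all genes. These were ERG13 (log2 difference 0.12, adjusted p = 0.261) and ERG1 (0.14, adjusted p = 0.278). The controls did not overlap in 3 members that were higher and 1, ERG4, that was lower in the IC20 experiment, against 10.9% and 10.3% of all genes. Experiment and any batch cannot be told apart in this comparison.

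Replicates of the IC20 experiment spread more. Taken over the members, the median log2 SD within a group was 0.034 for LOEC controls, 0.033 for 110 mg/L, 0.067 for IC20 controls and 0.060 for 200 mg/L. Over all genes it was 0.056, 0.057, 0.082 and 0.095. In the IC20 experiment the deviation of an array from its group mean ran with coding length across the members. Spearman's rho was 0.69, -0.44 and -0.13 in control arrays 1, 2 and 3 and -0.43, -0.17 and 0.58 in 200 mg/L arrays 1, 2 and 3, against -0.19 to 0.20 in the LOEC experiment. The trend was not particular to the members. Over all 5449 genes rho was 0.40, -0.46 and 0.18 in the same control arrays and -0.49, -0.15 and 0.57 in those at 200 mg/L. In the LOEC experiment it lay within -0.078 and 0.15 over all genes. On IC20 control array 2, KES1, ERG5 and ARE2 lay 0.31, 0.29 and 0.32 below their group means on the log2 scale. The log2 changes at 200 mg/L themselves had a rho of -0.028 with coding length across the members, and of 0.17 over all genes. With each array's length trend removed, the same count of 7 members rose at 200 mg/L, and all 7 were those named above.

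**Figure D4:**
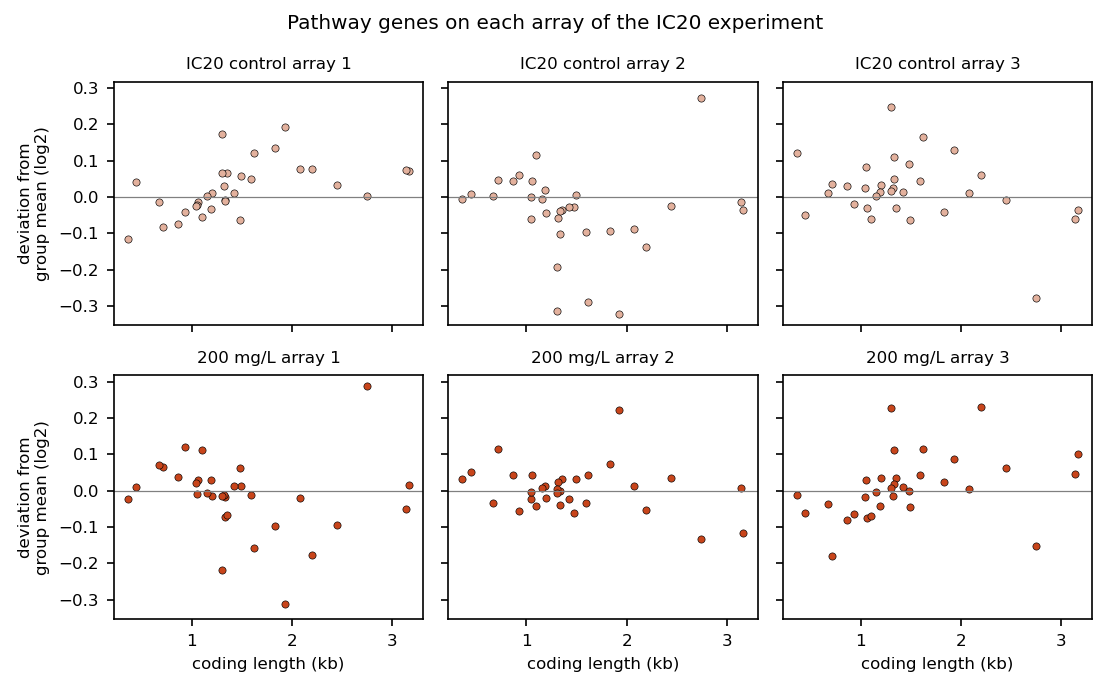
Deviation of each of the 32 members from its group mean (y axis, log2) against coding length in kb (x axis) on the 6 arrays of the IC20 experiment. Longer genes tend to lie low on IC20 control array 2 and 200 mg/L array 1. They tend to lie high on IC20 control array 1 and 200 mg/L array 3. UPC2, a long gene with large deviations, lies against these directions on control array 2 and on 200 mg/L arrays 1 and 3.

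Genes that border on the pathway were counted in 6 further lists. In sterol uptake and wall mannoproteins of low oxygen, 0 of 10 rose and 0 fell at 110 mg/L in limma. Of all genes 3.05% rose and 1.21% fell there. Unadjusted p under 0.05 in limma was met by 2 of 10 at that dose, against 16.3% of all genes. With 200 mg/L 1 rose and 1 fell, against 10.0% and 7.80% of all genes. The unadjusted count was then 4 of 10, against 31.5% of all genes. TIR4, a wall mannoprotein made in low oxygen, fell from 704 ± 63.2 to 503 ± 36.0 (SD, n = 3; log2 change -0.48, limma adjusted p = 0.000663). PDR11, an ABC transporter of sterol uptake, rose by a log2 change of 0.18 (adjusted p = 0.0350), a call that was lost in 8 of 12 fits without 1 array: LOEC control arrays 1 and 2, 110 mg/L arrays 1 and 2, IC20 control arrays 1 and 2 and 200 mg/L arrays 1 and 3 (log2 change 0.14 to 0.23). It was also lost in the fit of the 6 arrays (adjusted p = 0.149). Median log2 changes of the list were 0.0090 and 0.026.

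Of 13 other sterol regulators and enzyme partners, SUT1 was the member past the test, 1 of 13 at each dose, against 3.05% and 10.0% of all genes that rose. This regulator of sterol uptake rose at both doses, from 1518 ± 86.8 to 1874 ± 118 and from 1634 ± 65.0 to 1949.5 ± 47.7 (SD, n = 3). Its log2 changes were 0.30 and 0.25 (limma adjusted p = 0.0144 and 0.0127). The first call was lost without LOEC control arrays 1 or 2 or 110 mg/L arrays 1 or 3 (log2 change 0.26 to 0.36, adjusted p up to 0.0754). The oxygen-dependent regulators HAP1, ROX1, MOT3 and MGA2 did not pass at either dose. MOT3 was near the threshold at 200 mg/L (log2 change -0.34, limma adjusted p = 0.0543). In this list 1 of 13 met unadjusted p under 0.05 in limma at 110 mg/L, against 16.3% of all genes. At 200 mg/L 6 of 13 did, 3 higher and 3 lower, against 31.5%.

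In sterol ester breakdown and sterol acetylation, 1 of 5 genes rose at each dose, against 3.05% and 10.0% of all genes. It was YEH1, a sterol ester hydrolase, which read 1360, 1378 and 1277 in the LOEC controls and 1718.5, 1685 and 1747 at 110 mg/L. It read 1377, 1246 and 1391 in the IC20 controls and 1757, 1905 and 1662 at 200 mg/L. The groups were apart at both doses, and the log2 changes were 0.36 and 0.41 (SE 0.060, limma adjusted p = 0.00562 and 0.000975). Both calls held with each of the 12 arrays left out. The related hydrolases TGL1 and YEH2 had values of -0.058 and 0.066 at 200 mg/L that did not pass.

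Among 15 genes of other oxysterol-binding homologues and sterol transfer proteins, 1 rose at 110 mg/L, against 3.05% of all genes. At the higher dose 2 rose and 1 fell, or 13.3% rising, near the 10.0% of all genes, of which 7.80% fell. Unadjusted p under 0.05 in limma was met at that dose by 6 of 15, against 31.5% of all genes. LAM4 and LAM5, relatives that move sterol at membrane contacts, rose at 200 mg/L by log2 changes of 0.52 and 0.35 (limma adjusted p = 0.00112 and 0.0130). For LAM4 the means were 963 ± 31.6 and 1385 ± 131 (SD, n = 3). The call of LAM5 was lost without 200 mg/L array 2 (adjusted p = 0.0501, log2 change 0.32) and in the fit of the 6 arrays of the experiment (adjusted p = 0.0581). PRY1, which binds and exports sterols, fell from 5083 ± 520 to 3327 ± 607 (SD, n = 3; log2 change -0.62, limma adjusted p = 0.00331). PRY3 passed at 110 mg/L, with log2 changes of 0.22 and 0.0025 at the 2 doses and a difference that did not pass (adjusted p = 0.241). Its IC20 controls were also higher than its LOEC controls, by 0.34 (limma adjusted p = 0.0176), a call that was lost without LOEC control arrays 2 or 3 or IC20 control array 3 (log2 difference 0.31 to 0.35). The rise of PRY3 was lost without any LOEC control array or 110 mg/L arrays 1 or 2 (log2 change 0.19 to 0.25), after median centring (adjusted p = 0.0629) and after quantile normalization (adjusted p = 0.0542).

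Heme, which Erg5, Erg11 and Cyb5 carry, is made by 8 enzymes. At 110 mg/L 0 rose and 0 fell in limma, where 3.05% of all genes rose and 1.21% fell. Unadjusted p under 0.05 in limma was met there by 2 of 8, against 16.3% of all genes. At 200 mg/L 2 rose and 2 fell, against 10.0% and 7.80% of all genes, and the unadjusted count was 4 of 8, against 31.5%. HEM14 and HEM13, both oxidases of late steps, rose by log2 changes of 0.36 and 0.19 (limma adjusted p = 0.00313 and 0.0372). HEM2 and HEM12, of earlier steps, fell (log2 changes -0.20 and -0.16, limma adjusted p = 0.00639 and 0.0251). The call of HEM13 was lost in 7 of 12 fits without 1 array: LOEC control arrays 1 and 2, 110 mg/L array 1, IC20 control arrays 1 and 2 and 200 mg/L arrays 1 and 2 (log2 change 0.15 to 0.24). That of HEM12 was lost without IC20 control arrays 1 or 3 or 200 mg/L arrays 1 or 3 (log2 change -0.18 to -0.14). In the fit of the 6 arrays of the experiment HEM2, HEM12 and HEM13 did not pass (adjusted p = 0.0664, 0.117 and 0.148), and HEM13 was also lost after median centring (0.0639) and quantile normalization (0.0502).

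In the other branches of isoprenoid use, 0 of 14 genes passed at 110 mg/L in limma, against 4.26% of all genes. Unadjusted p under 0.05 in limma was met by 2 of 14 at that dose, against 16.3% of all genes. The higher dose gave 0 that rose and 3 that fell, against 10.0% and 7.80% of all genes, with a median log2 change of -0.11. Unadjusted p under 0.05 was met at 200 mg/L by 9 of 14, 3 higher and 6 lower, against 31.5% of all genes. The lower ones include SRT1, which read below the level of the deleted loci on all 12 arrays. COX10, which puts a farnesyl group on heme, fell by 0.20 on the log2 scale (limma adjusted p = 0.00585). COQ1, which makes the ubiquinone side chain, had -0.21 and NUS1, a partner in dolichol synthesis, -0.16 (limma adjusted p = 0.0443 and 0.0340). The call of COQ1 was lost in 8 of 12 fits without 1 array, with adjusted p up to 0.140: LOEC control array 2, 110 mg/L arrays 1 and 3, IC20 control arrays 1 and 3 and all 3 arrays at 200 mg/L. That of NUS1 was lost without LOEC control array 2, 110 mg/L array 1, IC20 control arrays 2 or 3 or 200 mg/L arrays 1 or 3 (adjusted p up to 0.0969). COX10 held with each array left out. In the fit of the 6 arrays of the experiment all 3 calls were lost, with an adjusted p of 0.0590 for COX10, 0.0847 for COQ1 and 0.133 for NUS1.

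**Figure D5:**
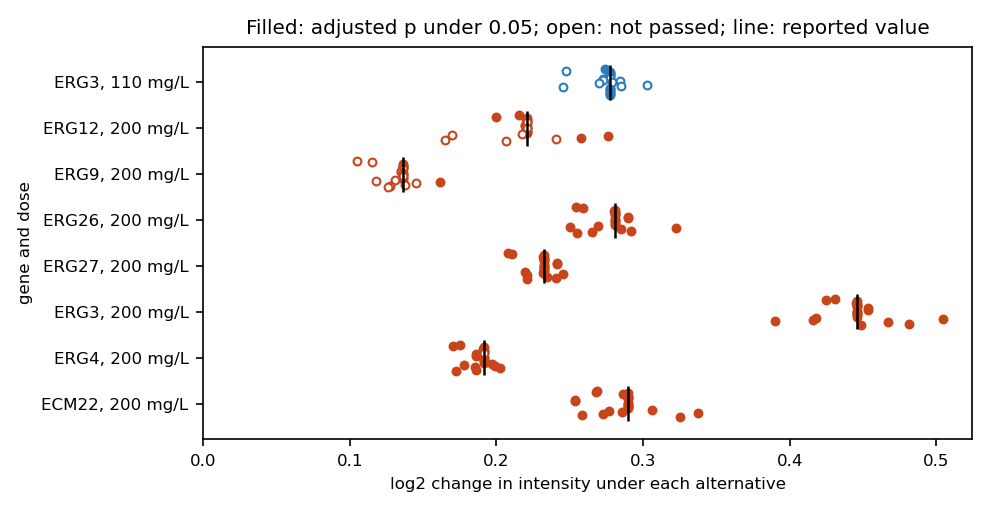
Log2 change (x axis) of each pathway call (y axis, gene and dose) under every alternative of processing. Filled points passed at adjusted p under 0.05, open points did not, and black lines mark the reported value. ERG26, ERG27, ECM22 and ERG3 at 200 mg/L passed under all 23 alternatives, ERG4 under 21, ERG12 under 16, ERG3 at 110 mg/L under 14 and ERG9 under 9. The alternatives include omissions of arrays of the other experiment, which leave the log2 change as it was.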

How the data were processed

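RNA of 12 cultures was hybridised to Affymetrix GeneChip Yeast Genome 2.0 arrays with 1 colour and biotin label, per the labels' protocols. The authors deposited linear intensities, and the submitters' processing notes name Affymetrix Expression Console with no role. The probe summary and array normalization are not given in the sources used. Of 5716 probe sets, 5498 had 1 gene symbol, 0 had several and 218 had none and were left out. Symbols were updated through RefSeq (assembly R64), and of several probe sets for a gene that of highest mean was kept. Log2 was taken with no pseudocount, and limma 3.58.1 in R 4.3.3 fitted 4 group means with eBayes, two-sided.

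The members and lists were chosen with earlier results of these data known. All 32 members are named, with values in every array for those past the test. Of the further lists, those past the test are named, by size, up to 3 a list, and TGL1, YEH2, HAP1, ROX1, MOT3, MGA2, HEM12 and PRY3 were named after their values were seen. Alternatives were quantile normalization, median centring, omission of the dimmest 20% of genes, log2 of the value plus 16, the mean of a gene's probe sets, an intensity trend with robust moderation, the 6 arrays of an experiment, the replicate number as a block, subtraction of a coding length trend from each array (alone and with the block), and omission of arrays.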

Additional observations from a re-analysis of the deposited data

How the results depend on the processing

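At 110 mg/L the count of pathway genes past the test was 1 as reported, 2 with quantile normalization and 2 with the length trend removed, where HES1 was added as lower. It was 0 with median centring, 0 with the replicate block, and 0 with the length trend removed together with the block. It ran from 0 to 1 over the fits without 1 array. At 200 mg/L it was 7 as reported, 4 in the fit of the 6 arrays of the experiment and 5 to 7 without 1 array. With the replicate block 5 genes passed at 200 mg/L. For the difference of the responses it was 0 as reported, 1 with the length trend removed, and 0 to 1 without 1 array. For the contrast of controls it was 0 in every fit. Over all genes 232 passed at 110 mg/L as reported, 314 in the fit of 6 arrays and 113 to 266 without 1 array. At 200 mg/L these counts were 971, 444 and 713 to 973. With the length trend removed 329 passed at 110 mg/L and 1198 at 200 mg/L. Whether the pathway counts moved apart from those of all genes was not tested. No gene changed sign at a dose where it passed. Beyond the pathway, the block ended the calls at 200 mg/L of PDR11, HEM2, HEM12, HEM13, COQ1, NUS1, COX10 and LAM5 (adjusted p 0.0527 to 0.139). It ended those at 110 mg/L of SUT1 (0.0770), PRY3 (0.190) and YEH1 (0.0948) and that of PRY3 between controls (0.0646). Calls at 110 mg/L were gained by LAM4 without LOEC control array 3 (0.0470), HEM14 without 200 mg/L array 3 (0.0488) and PRY1 in the fit of 6 arrays (0.0283). The replicate numbers were not taken to pair the cultures, since the labels do not say that a number marks a shared culture, day or batch. Deviations of arrays with the same number correlated at -0.61 to 0.14 across genes. Among arrays of unlike number the value reached 0.65, for IC20 control array 2 with 200 mg/L array 1. The block lowered the calls over all genes from 232 to 97 at 110 mg/L and from 971 to 519 at 200 mg/L. It also takes up degrees of freedom, so neither result shows whether cultures were paired. The array medians differ by a few percent in intensity, which is as large as the smaller changes here, so values of a few hundredths in log2 carry no direction. Only 3 arrays a group limit what small changes can pass.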
